A study of Mus musculus with 17 samples.

Results

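The genes of the ATF, CREB and JDP2 group, 10 in all, were followed through 2 kinds of mouse macrophage: Creb1, Crem, Atf1, Atf2, Atf7, Atf3, Jdp2, Atf4, Atf5 and Atf6. They were found by gene symbol, each matching 1 of 24453 gene models, so they are 10 of 24453 and the rule that finds them uses no measured value. PolyA RNA was sequenced in 13 libraries, and levels are reads scaled by exon length in kilobases and by the library total (RPKM). Immortalised bone marrow-derived macrophages (iBMDMs) were C57Bl/6EiJ bone marrow cells at passage 3 to 8 that carried mutant BRAF, Myc and Cas9. They received a virus with 2 guides against Atf3 (Atf3KO), Jun (JunKO) or Jund (JunDKO), or were the scramble control (Scramble, zsGreen in the titles). Each of these 4 groups held 2 libraries of vehicle-treated cells sorted for the marker of the virus, and whether a group came from 1 clone is not stated in the sources used here. Thioglycollate-elicited macrophages (TGEMs) are primary cells drawn into the peritoneum, here collected after 3 days from male 8-week mice. They received vehicle (PBS, Veh) or, for 1 h, 100 ng/mL of KLA (Kdo2 lipid A), which activates the receptor TLR4. There was 1 Veh and 1 KLA library of C57Bl/6EiJ TGEMs, beside 1 Veh and 2 KLA libraries of Balb/cJ TGEMs. Nothing in the labels says whether replicates came from separate cultures, so p-values measure the spread between these libraries, which may be technical. The 4 GRO-seq samples of the series were not analysed here.

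The proteins of these genes are basic leucine zipper (bZIP) factors, which bind DNA as dimers, many of them at the cyclic AMP response element (CRE) or at its core. CREB1, CREM and ATF1 are phosphorylated by protein kinase A and then recruit the coactivator CBP, and ATF2 and ATF7 are activated by the stress kinases p38 and JNK. ATF3 and JDP2 pair with Jun proteins and can repress, and ATF3 is known in macrophages as an inducible brake on cytokine genes. ATF4 and ATF5 are made from messages whose translation rises when the initiation factor eIF2 is phosphorylated, and ATF6 is held in the endoplasmic reticulum membrane until misfolded protein releases it, so RNA levels of these genes are no measure of active protein.

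Promoter sequence is shown for Atf3, Jdp2 and Atf4, which were among the genes whose RNA was higher in the libraries labelled Atf3KO. Atf5 was higher there too and is not shown, and its windows held neither of the motifs marked below. Atf1, whose RNA was lower there, held a CRE core. Each line gives the 140 bases before a start site (RefSeq, GRCm38.p6), 5′ to 3′ on the strand of the gene. They lie at chr1:191183334-191183473 on the minus strand for Atf3, at chr12:85599276-85599415 on the plus strand for Jdp2 and at chr15:80255044-80255183 on the plus strand for Atf4. Capitals mark the 5-letter CRE core TGACG and the 8-letter C/EBP-ATF site TGATGNAA, each on either strand.
Atf3: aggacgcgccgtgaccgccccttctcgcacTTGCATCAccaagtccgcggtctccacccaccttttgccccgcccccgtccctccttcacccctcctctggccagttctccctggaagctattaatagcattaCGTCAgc
Jdp2: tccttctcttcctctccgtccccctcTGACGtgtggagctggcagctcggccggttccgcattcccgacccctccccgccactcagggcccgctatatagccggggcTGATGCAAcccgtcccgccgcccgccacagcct
Atf4: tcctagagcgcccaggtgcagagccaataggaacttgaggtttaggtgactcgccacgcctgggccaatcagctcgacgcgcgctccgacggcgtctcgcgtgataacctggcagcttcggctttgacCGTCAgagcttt
In Atf3 the C/EBP-ATF site began 110 bases before the start site and the CRE core 7 bases before it. In Jdp2 the CRE core began 114 bases and the C/EBP-ATF site 33 bases before the start. The Jdp2 model that was counted begins downstream, at position 85600018, and the 2 other start-site windows of Jdp2 held neither motif. Atf4 had a CRE core 12 bases before its start and another 40 bases after it, outside the bases shown. Motifs were searched in windows of 300 bases, 250 before to 50 after each start, of which 11 belonged to 8 of the 10 genes. The C/EBP-ATF site was in 2 of these 11 windows and in 3.97% of all 32851 windows. The CRE core was in 4 of the 11 (Atf3, Jdp2, Atf4 and Atf1) and in 20.8% of all. The whole CRE (TGACGTCA) was in 0 of the 11 and in 1.79% of all, and the AP-1 site TGANTCA in 0 of the 11 and in 7.81% of all. A match describes letters in these windows and no match says nothing about binding.

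Library totals recovered from the RPKM steps ran from 1553296 to 18444561 reads. Of the targeted genes, Atf3 was higher in the libraries labelled Atf3KO, at 154 and 169 RPKM against 80.7 and 77.4 in Scramble, which goes against the label. Jun measured 26.2 and 20.5 RPKM in those labelled JunKO against 17.6 and 18.5, and Jund 6.94 and 6.07 RPKM in those labelled JunDKO against 9.19 and 8.33. An edited gene can still make RNA, so these levels do not show whether the protein was lost. The study examined the proteins by western blotting, which was not analysed here. The libraries labelled Atf3KO held reads of 10425 and 10631 models against 11884 to 12533 in the other iBMDM libraries, and replicate 2 of them carried a later date in its label than the other 7 iBMDM libraries. Across 10617 models their log2 difference from Scramble rose with the GC content of the transcript (Spearman's rho 0.50), so differences of the 10 genes from Scramble in them are also given after a correction for GC content, and so are differences from the other groups where it ended or added a call. All libraries are labelled male, although Xist measured 19.2 to 28.1 RPKM in TGEMs and at most 0.029 RPKM in iBMDMs. The 8 macrophage marker genes examined were all above 1 RPKM in both cell kinds, and 0 of 7 neutrophil markers reached 1 RPKM in any library.

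Atf3 and Atf4 were the most abundant of the 10 in both cell kinds. In Scramble iBMDMs the mean RPKM (n = 2) fell in the order Atf3 at 79.1 ± 2.4 (SD), Atf4 at 74.9 ± 2.6, Atf5 at 25.5 ± 2.3, Atf6 at 18.0 ± 0.71, Atf2 at 14.8 ± 4.4, Atf1 at 13.7 ± 0.51, Jdp2 at 8.69 ± 0.49, Atf7 at 7.48 ± 0.40, Creb1 at 7.15 ± 1.3 and Crem at 4.57 ± 0.19. The libraries of neighbours in that order overlapped for Atf6 with Atf2, Atf2 with Atf1 and Atf7 with Creb1, and those of the other neighbours did not. Atf3 stood above 97.1% of all models in mean RPKM and Crem above 67.9%. In vehicle-treated TGEMs the order was Atf3 at 245 ± 19 RPKM (n = 2, 1 library of each strain), Atf4 at 166 ± 0.41, Atf5 at 30.1 ± 9.6, Atf1 and Atf6 at 20.6 each, Atf2 at 9.52 ± 1.9, Atf7 at 8.88 ± 2.2, Jdp2 at 8.07 ± 2.1, Creb1 at 3.20 ± 0.66 and Crem at 1.46 ± 0.24. There the neighbours Atf1 with Atf6, Atf2 with Atf7 and Atf7 with Jdp2 overlapped. Atf3 and Atf4 together made up 57.4% to 69.2% of the summed RPKM of the 10 genes in iBMDM libraries and 79.4% to 86.1% in TGEM libraries. The sum itself was 252 to 438 RPKM in iBMDMs and 487 to 666 RPKM in TGEMs. In bulk RNA, fewer cells that express a gene and less RNA per cell cannot be told apart.

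**Figure D1:**
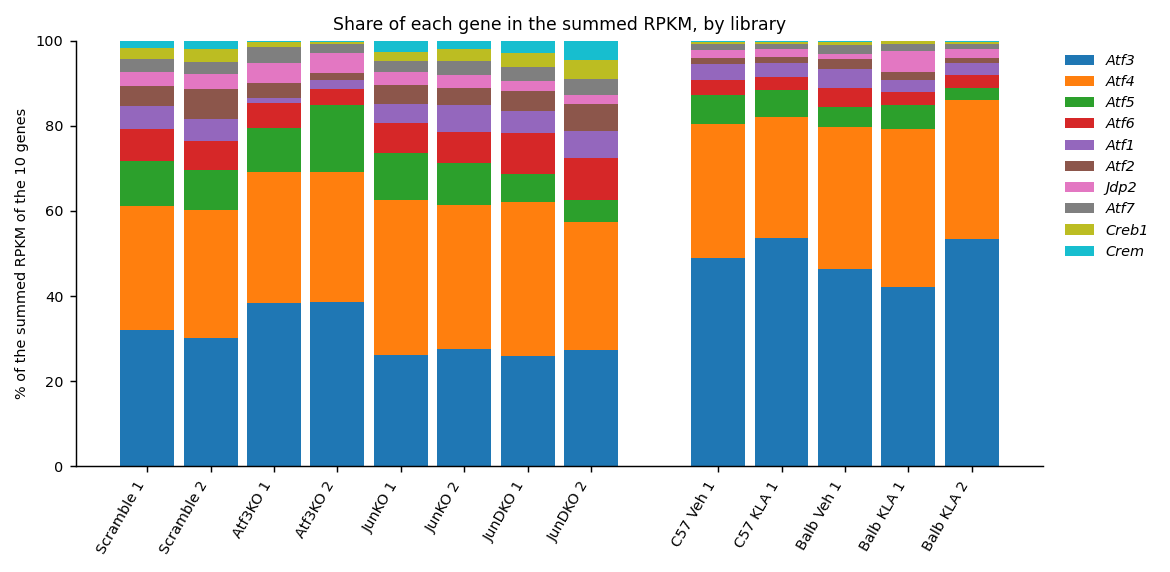
Share of each gene (vertical axis, % of the summed RPKM of the 10 genes) in each of the 13 libraries (horizontal axis), iBMDMs left and TGEMs right. Atf3 and Atf4 together take 57.4% to 69.2% in iBMDMs and 79.4% to 86.1% in TGEMs.

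Gene models limit what some of these values measure. The Atf5 model is a non-coding RefSeq transcript (NR_033136, chr7:44812256-44816658) that shares 571 bases with Nup62 and 289 bases with Gm21948 on the other strand, and no strand option of the counting is given in the sources used here. The Crem model (NM_001110855) is one of several that start at different places, so the isoforms of Crem, some of which repress, cannot be told apart. The Jdp2 model (NM_001205053, chr12:85600018-85639878) has 3 start-site windows in RefSeq, whose use these values do not separate.

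**Figure D2:**
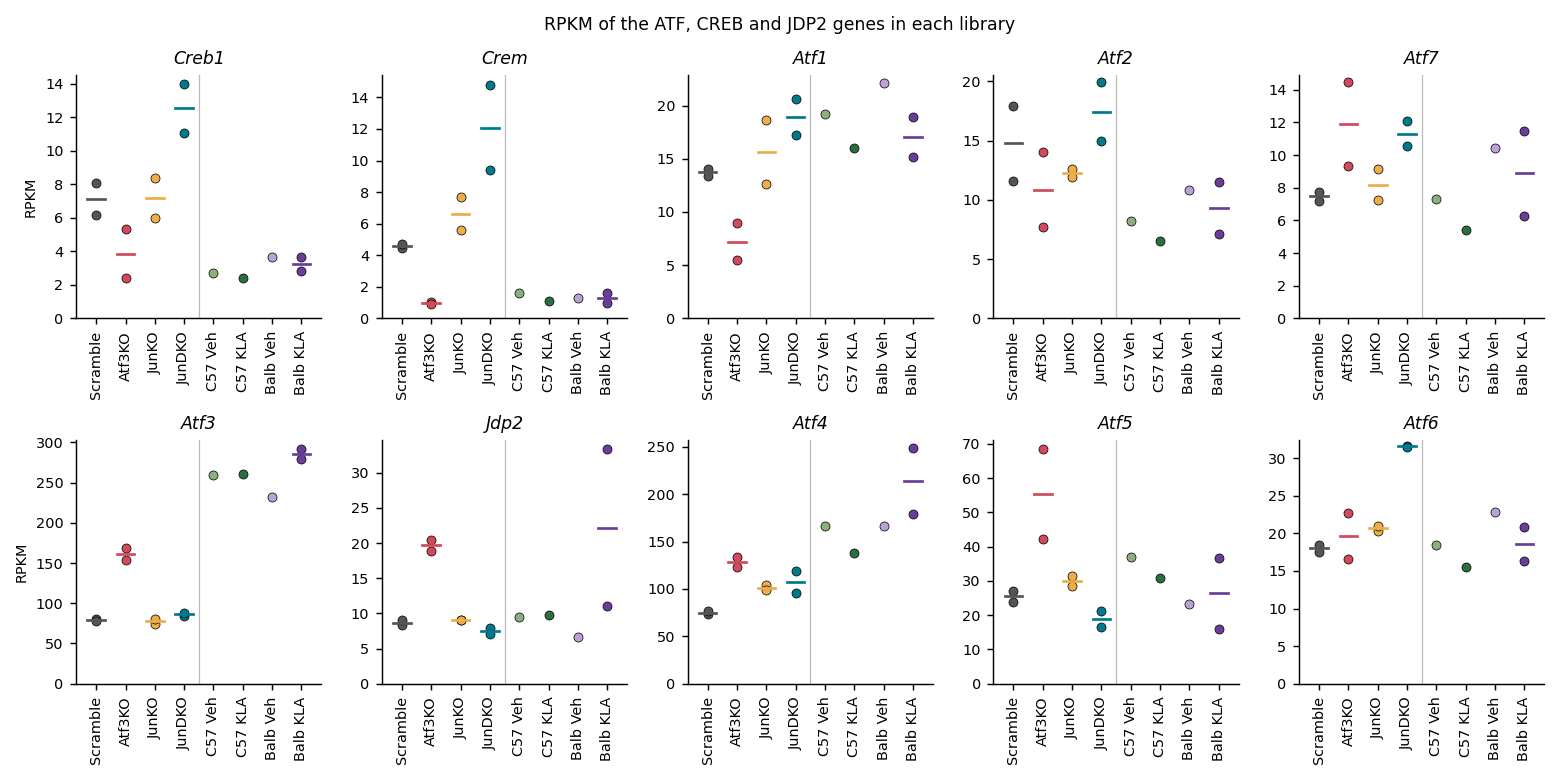
RPKM of each gene (vertical axes, each from 0) in each library (points) by group (horizontal axis), with a line at the mean of groups of 2 libraries. Atf3, Jdp2, Atf4, Atf5, Crem, Atf1 and Creb1 of the libraries labelled Atf3KO lie outside the range of the other 6 iBMDM libraries, although Creb1 did not pass against Scramble. For Jdp2, 1 Balb/cJ KLA library stands apart at 33.3 RPKM.

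The libraries labelled Atf3KO were compared with Scramble, the comparison meant to address ATF3 and its own gene group. Of the 10 genes, 4 were higher (Jdp2, Atf3, Atf5 and Atf4) and 2 were lower (Crem and Atf1) at an adjusted p under 0.05. Of all 10691 models tested with limma, 41.2% passed, 20.7% higher and 20.6% lower, against 60% of the 10 genes. The fit used log2(RPKM + 1), so a fold change is on that scale and understates changes of genes with low values.

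The repressors and Jun partners Jdp2 and Atf3 were among the genes that rose. Jdp2 measured 18.9 and 20.5 RPKM (129 and 230 reads) in the libraries labelled Atf3KO against 8.34 and 9.03 RPKM (25 and 24 reads) in Scramble. Its lowest value there was above the 7.02 to 9.07 RPKM of the other 6 iBMDM libraries. The log2 difference was 1.09 ± 0.18 (SE, n = 2 against 2; limma adjusted p = 0.00344), and 0.77 ± 0.16 after the GC correction (limma adjusted p = 0.00693). In a single fit of all 13 libraries its SE was 0.40 and the call ended (limma adjusted p = 0.0584). Atf3, at 154 and 169 RPKM, was above the 74.4 to 87.7 RPKM of the other 6 iBMDM libraries. Its log2 difference of 1.02 ± 0.16 (limma adjusted p = 0.00237) was 0.85 ± 0.11 after the GC correction.

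The genes translated under eIF2 phosphorylation rose too. Atf4 stood at 73.0 and 76.7 RPKM in Scramble, at 104 and 98.5 RPKM with JunKO, at 119 and 95.9 RPKM with JunDKO, and at 123 and 134 RPKM in the libraries labelled Atf3KO. All 6 libraries labelled as knockouts were thus above both Scramble libraries, and the 2 labelled Atf3KO were the highest. The log2 difference was 0.77 ± 0.17 (limma adjusted p = 0.00979) and 0.56 ± 0.13 after the GC correction (limma adjusted p = 0.0101). Atf5, with the highest GC content of the 10 at 61.7%, measured 42.3 and 68.5 RPKM against 27.2 and 23.8 in Scramble. The groups did not overlap, and the log2 difference was 1.05 ± 0.25 (limma adjusted p = 0.0131). After the GC correction it was 0.05 ± 0.14 (limma adjusted p = 0.775), so the Atf5 call ended under that correction. It also ended without Atf3KO replicate 2 (0.71 ± 0.21, limma adjusted p = 0.0547) and without Scramble replicate 2 (0.96 ± 0.33, limma adjusted p = 0.0864), and in a single fit of all 13 libraries (limma adjusted p = 0.0503).

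Among the protein kinase A targets, Crem was at 1.03 and 0.904 RPKM (9 and 13 reads) in the libraries labelled Atf3KO against 4.43 and 4.70 RPKM in Scramble (17 and 16 reads). These were the lowest values of any iBMDM library, with 5.58 to 14.8 RPKM in the JunKO and JunDKO libraries. The log2 difference was -1.50 ± 0.27 (limma adjusted p = 0.00453) and -0.73 ± 0.30 after the GC correction (limma adjusted p = 0.0828). Atf1 measured 5.49 and 8.93 RPKM against 14.1 and 13.3 in Scramble and 12.6 to 20.6 in the other 4 iBMDM libraries, with no overlap. Its log2 difference of -0.87 ± 0.27 (limma adjusted p = 0.0331) was -0.43 ± 0.30 after the GC correction (limma adjusted p = 0.276). That call ended without Atf3KO replicate 1 (-0.57 ± 0.27, limma adjusted p = 0.134) and without either Scramble or either JunDKO library (limma adjusted p = 0.0608 to 0.120). Creb1 measured 5.33 and 2.38 RPKM against 6.19 and 8.10 in Scramble and 5.96 to 14.0 in the other 4 iBMDM libraries, with no overlap. Its difference of -0.81 ± 0.33 did not pass (limma adjusted p = 0.0819), was 0.02 ± 0.19 after the GC correction and passed without Atf3KO replicate 1 (-1.26 ± 0.29, limma adjusted p = 0.0196), with limma-voom on recovered reads (-1.06 ± 0.36, adjusted p = 0.0321) and with a replicate block in which the Atf3KO numbers were crossed (limma adjusted p = 0.0178).

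The stress kinase targets Atf2 and Atf7 and the membrane-held Atf6 did not pass. Atf7 measured 14.5 and 9.34 RPKM against 7.76 and 7.19 in Scramble, a log2 difference of 0.58 ± 0.25 (limma adjusted p = 0.0914) that was 0.82 ± 0.19 after the GC correction (limma adjusted p = 0.0108) and 0.87 ± 0.22 without Atf3KO replicate 2 (limma adjusted p = 0.0365). Atf7 passed too with the replicate block in which the Atf3KO numbers were crossed (limma adjusted p = 0.0495). Atf6 measured 22.8 and 16.6 RPKM against 18.5 and 17.5, and its difference of 0.11 ± 0.20 became 0.45 ± 0.14 after the GC correction (limma adjusted p = 0.0332). Atf2 measured 14.0 and 7.68 RPKM against 11.6 and 17.9, and its difference of -0.44 ± 0.31 became 0.32 ± 0.21, neither passing. Thus with the correction Jdp2, Atf3 and Atf4 stayed higher, Atf7 and Atf6 joined them, and Atf5, Crem and Atf1 no longer passed. Whether the trend with GC content is technical was not tested.

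**Figure D3:**
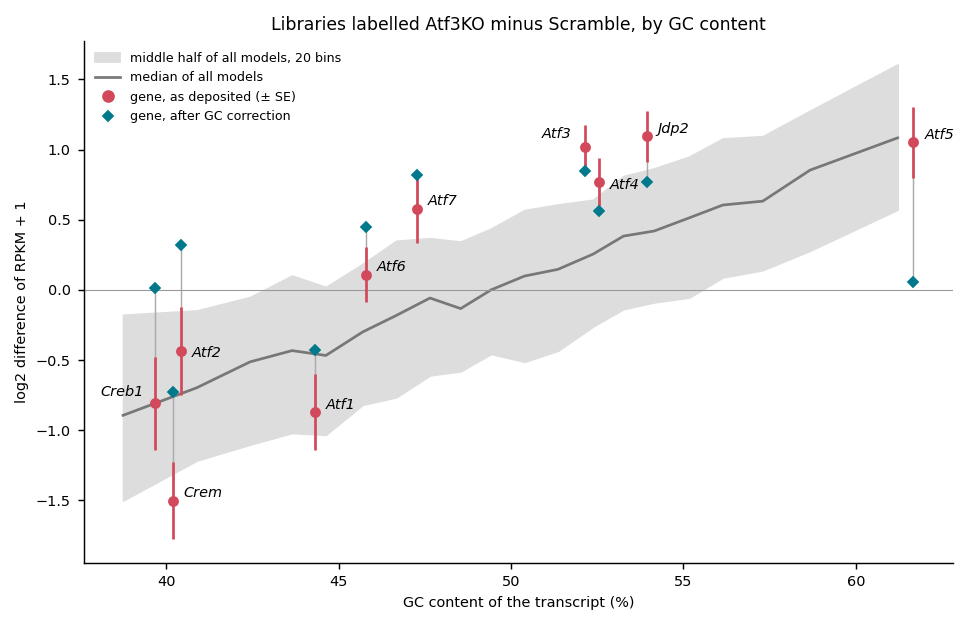
Log2 difference of RPKM + 1 between the libraries labelled Atf3KO and Scramble (vertical axis) against the GC content of the transcript in % (horizontal axis). Circles with SE bars are the 10 genes as deposited, diamonds the same after the GC correction, the line and band the median and middle 50% of all models in 20 bins. Atf5 and Creb1 move to near 0 after the correction, Jdp2, Atf3 and Atf4 stay above it.

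The libraries labelled JunKO were compared with Scramble in the same fit. The number of the 10 genes that passed was 0 with limma-trend and 0 with limma-voom on recovered reads, and of all models 0.281% passed. At an unadjusted p under 0.05 there were 842 of all 10691 models and 1 of the 10 genes, Atf4, with a log2 difference of 0.43 ± 0.17 (limma adjusted p = 0.571). Its 104 and 98.5 RPKM lay above the 73.0 and 76.7 of Scramble. The differences of the other 9 ran from -0.22 (Atf2) to 0.44 ± 0.27 (Crem). Crem measured 7.67 and 5.58 RPKM against 4.43 and 4.70, and Atf3 74.4 and 80.3 RPKM against 80.7 and 77.4.

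In the libraries labelled JunDKO, 2 of the 10 genes were higher than in Scramble, Crem and Atf6, and 0 were lower. Of all models 11.7% passed, 6.93% higher and 4.82% lower, and the median of all models was itself 0.23 higher on the log2 scale. Crem measured 9.39 and 14.8 RPKM (29 and 541 reads) against 4.43 and 4.70 in Scramble, a log2 difference of 1.20 ± 0.27 (limma adjusted p = 0.0264). Atf6 measured 31.6 and 31.5 RPKM against 18.5 and 17.5, a log2 difference of 0.78 ± 0.20 (limma adjusted p = 0.0387). Both genes lay above every other iBMDM library, of which the highest held 7.67 RPKM of Crem and 22.8 RPKM of Atf6. When library medians were made equal the differences were 0.94 ± 0.27 for Crem (limma adjusted p = 0.0728) and 0.49 ± 0.20 for Atf6 (limma adjusted p = 0.191). Both calls also ended without either Scramble library or either JunDKO library, at limma adjusted p-values of 0.0529 to 0.194, and that of Atf6 without either JunKO library (limma adjusted p = 0.0705 and 0.0707). JunDKO replicate 1 held 1553296 reads against 18444561 in replicate 2. Replicate numbers went together in Scramble, JunKO and JunDKO, the groups of 1 label date, and with a replicate block (the number as a term of the fit) over these 6 libraries Crem and Atf6 passed beside Creb1 (0.73 ± 0.15, limma adjusted p = 0.0217) and Atf4 (0.51 ± 0.11, limma adjusted p = 0.0255). This block was chosen after seeing the data. A block over all 8 iBMDM libraries kept only 1 of the 2 calls, Crem and Atf6.

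The 8 other genes of the group did not pass in the fit with no block and no GC correction. After the GC correction Creb1, Atf5 and Atf4 (0.51 ± 0.13, limma adjusted p = 0.0244) passed. Creb1, a close relative of Crem, measured 11.1 and 14.0 RPKM against 6.19 and 8.10 in Scramble, above every other iBMDM library, with a log2 difference of 0.73 ± 0.33 (limma adjusted p = 0.197). After the GC correction it was 0.79 ± 0.19 (limma adjusted p = 0.0233). Atf5 measured 21.3 and 16.5 RPKM against 27.2 and 23.8, below every other iBMDM library. Its log2 difference was -0.42 ± 0.25 (limma adjusted p = 0.320) and -0.54 ± 0.14 after the GC correction (limma adjusted p = 0.0264). Jdp2 (7.88 and 7.02 RPKM) and Atf3 (84.6 and 87.7 RPKM) differed from Scramble by -0.20 ± 0.18 and 0.12 ± 0.16.

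**Figure D4:**
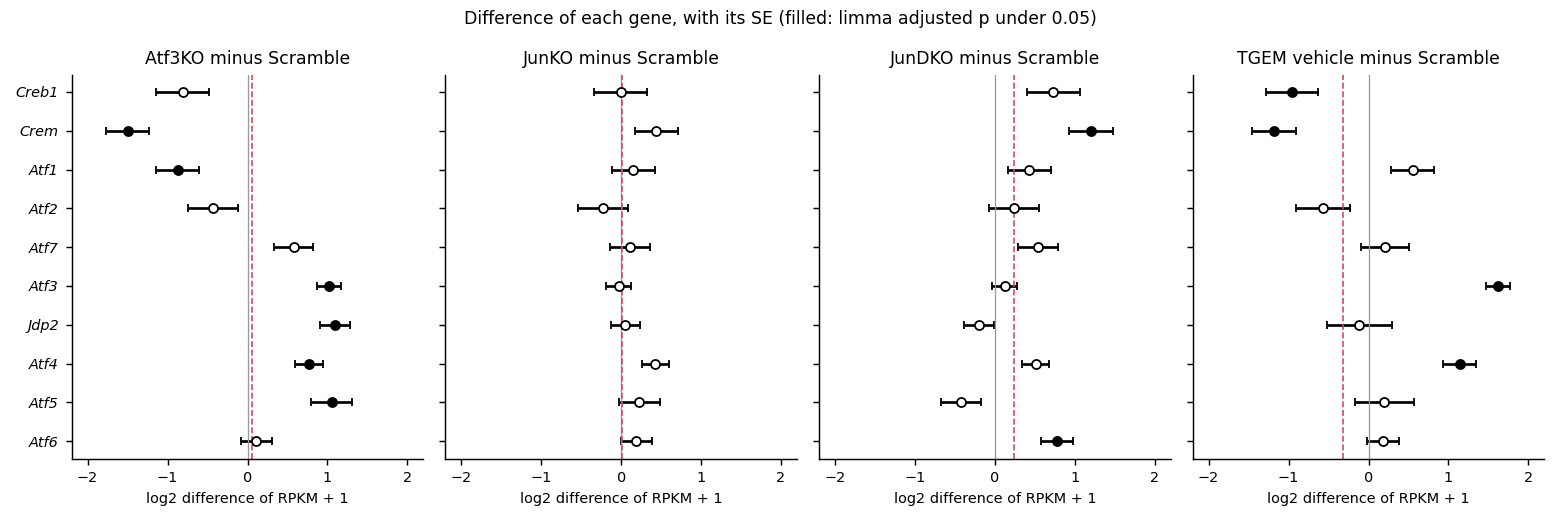
Log2 difference of RPKM + 1 (horizontal axis) with its SE for each gene (vertical axis) in 4 comparisons, the dashed line being the median of all models tested and filled points passing at a limma adjusted p under 0.05. The comparisons share the Scramble libraries. The number of filled points is 6, 0, 2 and 4 from left to right.

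The groups labelled as knockouts were also compared with each other, since a gene that passes in one and not in another is not thereby shown to differ. Between the libraries labelled Atf3KO and JunDKO 7 of the 10 genes passed, Atf5, Jdp2 and Atf3 higher in the first and Crem, Creb1, Atf1 and Atf6 lower, where 40.7% of all models passed, 14.9% higher and 25.9% lower. Crem differed by -2.70 ± 0.27 (limma adjusted p = 0.000379), the largest difference of the group in these 3 comparisons, and by -1.50 at the smallest over the 19 alternatives. Creb1 differed by -1.54 ± 0.33 (limma adjusted p = 0.00804) and by -0.77 ± 0.19 after the GC correction (limma adjusted p = 0.0139). Atf5 differed by 1.47 ± 0.25 (limma adjusted p = 0.00314) and by 0.59 ± 0.14 after it (limma adjusted p = 0.0100). Without JunDKO replicate 2 the calls of Creb1, Atf1 and Atf6 ended, with limma adjusted p-values of 0.0744, 0.0660 and 0.115. That of Atf6 also ended without JunDKO replicate 1 (limma adjusted p = 0.110), without Atf3KO replicate 2 (limma adjusted p = 0.0836), at equal library medians (limma adjusted p = 0.0741) and after the GC correction (-0.37 ± 0.14, limma adjusted p = 0.0614). Atf2 (-0.68 ± 0.31, limma adjusted p = 0.116) passed with limma-voom (-0.85, adjusted p = 0.0244), without Atf3KO replicate 1 (-1.07, limma adjusted p = 0.0339) and with the crossed block (limma adjusted p = 0.0394), and was at 0.015 ± 0.21 after the GC correction.

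Between the libraries labelled Atf3KO and JunKO 5 passed, Atf3, Jdp2 and Atf5 higher and Crem and Atf1 lower, where 35.5% of all models passed, 17.0% higher and 18.5% lower. Atf5 differed by 0.82 ± 0.25 (limma adjusted p = 0.0371), a call that ended in 13 of 19 alternatives, 7 of them leaving out 1 library (every iBMDM library but Atf3KO replicate 1), and turned to -0.086 after the GC correction. Without Atf3KO replicate 2 it was 0.48 ± 0.21 (limma adjusted p = 0.153). The call of Atf1 ended without Atf3KO replicate 1 (limma adjusted p = 0.0791) and without JunKO replicate 2 (limma adjusted p = 0.146), and after the GC correction it was -0.62 ± 0.30 (limma adjusted p = 0.138). The call of Jdp2 (1.04 ± 0.18) ended in the single fit of all 13 libraries (limma adjusted p = 0.0748). Creb1 (-0.80 ± 0.33, limma adjusted p = 0.0896) passed with limma-voom (-1.07, adjusted p = 0.0374), without Atf3KO replicate 1 (-1.26, limma adjusted p = 0.0223) and with the crossed block (limma adjusted p = 0.0202), and was at -0.042 ± 0.19 after the GC correction. Atf7 differed by 0.47 ± 0.25 (limma adjusted p = 0.165) and passed after the GC correction at 0.70 ± 0.19 (limma adjusted p = 0.0222). Crem differed by -1.94 ± 0.27 and by -1.23 ± 0.30 after the GC correction, passing both times (limma adjusted p = 0.00232 and 0.0159). Between the libraries labelled JunDKO and JunKO 8.14% of all models passed and the number among the 10 was 0 with limma-trend and 0 with limma-voom. Unadjusted p-values were under 0.05 for 3 of them and for 2661 of all 10691 models. The 3 were Crem at 0.76 ± 0.27, Atf6 at 0.59 ± 0.20 and Atf5 at -0.65 ± 0.25. After the GC correction Creb1 (0.73 ± 0.19, limma adjusted p = 0.0346), Atf6 (limma adjusted p = 0.0204) and Atf5 (limma adjusted p = 0.0130) passed. With a replicate block and no Atf3KO libraries 3 passed, Creb1 (0.74 ± 0.15, limma adjusted p = 0.0257), Atf6 (limma adjusted p = 0.0225) and Atf5 (limma adjusted p = 0.0190). Atf6 also passed without the Atf3KO libraries and with no block (0.59 ± 0.14, limma adjusted p = 0.0466), an alternative that changes the estimate of the spread and not the difference.

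In TGEMs, the fit of KLA against vehicle held strain as a term. The number of the 10 genes that passed was 0 with limma-trend, 0 with limma-voom and 0 at an unadjusted p under 0.05. Of all 10357 models 1.53% passed, 1553 had an unadjusted p under 0.05, and the median model was 0.15 lower. Atf3 was at 280 and 292 RPKM in the Balb/cJ KLA libraries against 232 in the Balb/cJ vehicle library, and at 261 RPKM in the C57Bl/6EiJ KLA library against 259 in vehicle. All 3 KLA libraries were above the vehicle library of their strain, by little in C57Bl/6EiJ, and both Balb/cJ ones were set against the same vehicle library. The log2 difference of Atf3 was 0.18 ± 0.26 (limma adjusted p = 0.769). Atf4 was at 249 and 179 RPKM against 166 in Balb/cJ and at 138 against 167 RPKM in C57Bl/6EiJ. Its log2 difference was 0.08 ± 0.30, and the libraries of the strains went in opposite directions. With 1 vehicle library a strain this does not show a strain difference, and the test of such a difference, given below, did not pass.

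Jdp2 had the largest difference of the 10 under KLA and the widest spread. It measured 33.3 and 11.1 RPKM (893 and 113 reads) in the Balb/cJ KLA libraries against 6.60 RPKM (24 reads) in vehicle, and 9.70 against 9.54 RPKM in C57Bl/6EiJ. Of the 3 KLA libraries 1 stood apart, and the other two lay just above the higher vehicle library. The log2 difference was 0.82 ± 0.50 (limma adjusted p = 0.471), and 0.34 ± 0.31 without that library, Balb/cJ KLA replicate 1. Within the label date shared by that library and the Balb/cJ vehicle library the difference was 2.18, and within the date of the C57Bl/6EiJ libraries it was 0.02. Crem (0.963 to 1.61 RPKM under KLA, 1.29 and 1.63 in vehicle) and Creb1 (2.39 to 3.63 against 3.67 and 2.74) overlapped between treatments, as did Atf2, Atf5, Atf6 and Atf7. Set against the vehicle library of their own strain, Creb1 (by -0.013 to -0.29 on the log2 scale) and Atf6 (by -0.13 to -0.46) were lower in all 3 KLA libraries. Both Balb/cJ KLA libraries were set against the same vehicle library, and replicate 2 carried another label date than it. The median difference of all models under KLA was itself -0.15. Atf1 measured 18.9, 15.1 and 16.0 RPKM under KLA against 22.1 and 19.2 in vehicle, all 3 below both, with a log2 difference of -0.31 ± 0.25 (limma adjusted p = 0.577).

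Between Balb/cJ and C57Bl/6EiJ TGEMs the number that passed was 0 with limma-trend, 0 with limma-voom and 0 at an unadjusted p under 0.05. Of all 10357 models 2.31% passed and 2213 had an unadjusted p under 0.05. The differences ran from -0.47 ± 0.37 (Atf5) to 0.52 ± 0.30 (Atf7). They too went with GC content over all models (Spearman's rho -0.45), and after the GC correction the difference of Atf5 was 0.064 ± 0.39, in the other direction. The strains were prepared on different label dates, and strain and date cannot be told apart. Whether the KLA response differed between the strains was tested with an interaction term that left 1 residual degree of freedom. Of all models 0% passed, 835 had an unadjusted p under 0.05, and the number among the 10 was 0 at either threshold and with limma-voom. For Jdp2 the interaction was 1.40 ± 1.03 (limma adjusted p = 0.785).

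Vehicle-treated TGEMs were compared with Scramble iBMDMs, the control cells of the 2 sets. Atf3 and Atf4 were higher in TGEMs and Crem and Creb1 lower, 4 of the 10, where 49.9% of all 10929 models passed, 16.2% higher and 33.7% lower, and the median model was 0.32 lower. Atf3 measured 259 and 232 RPKM against 80.7 and 77.4, a log2 difference of 1.62 ± 0.15 (limma adjusted p = 6.74e-05), and was called in all 20 alternatives. Atf4 measured 167 and 166 RPKM against 73.0 and 76.7, a log2 difference of 1.14 ± 0.20 (limma adjusted p = 0.00195), also called in all 20. For both genes every TGEM library, KLA included, stood above every Scramble library. Crem measured 1.63 and 1.29 RPKM (37 and 6 reads) against 4.43 and 4.70, a log2 difference of -1.18 ± 0.27 (limma adjusted p = 0.00703) that was -0.70 ± 0.31 after the GC correction (limma adjusted p = 0.0879). Creb1 measured 2.74 and 3.67 RPKM against 6.19 and 8.10, a log2 difference of -0.95 ± 0.32 (limma adjusted p = 0.0376). That call ended in 12 of 20 alternatives, at equal library medians with -0.68 ± 0.32 (limma adjusted p = 0.112) and without either library of Scramble, JunDKO or Balb/cJ KLA (limma adjusted p = 0.0540 to 0.176).

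Atf1 went the other way from its relatives Crem and Creb1. It measured 19.2 and 22.1 RPKM in vehicle-treated TGEMs against 14.1 and 13.3 in Scramble, with no overlap and a log2 difference of 0.55 ± 0.27 (limma adjusted p = 0.118). It passed at equal library medians (0.88 ± 0.26, limma adjusted p = 0.0224) and after the GC correction (0.90 ± 0.29, limma adjusted p = 0.0276). Cell kind, label date and in part strain cannot be told apart in this comparison. The 6 fibroblast and mesothelial markers examined summed to 40.4 to 81.6 RPKM in TGEM libraries and to at most 0.532 RPKM in iBMDM libraries, of which Col1a1, Msln and Upk3b were at 0. The 6 T and B cell markers summed to 4.31 to 14.7 RPKM and the 6 mast cell and eosinophil markers to 1.94 to 13.6 RPKM in TGEM libraries, against at most 0.488 and 0.264 RPKM in iBMDM libraries. In TGEMs 3 genes of each of these lists reached 1 RPKM, Cd3d of the first and Prg2 of the second were at 0, and in iBMDMs 4 and 5 of the 6 were at 0. Their part in these differences was not tested.

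The wider pathway was read from 8 lists of partners, regulators and target genes, in which counts are of genes that passed. In the libraries labelled Atf3KO against Scramble, where 20.7% of all models were higher and 20.6% lower, 8 of 18 tested ATF4 target genes rose and 2 fell, with a median difference of 0.45 beside 0.05 over all models, and 6 rose and 3 fell after the GC correction. Shmt2, a serine and glycine enzyme, rose from 26.9 to 79.6 RPKM (1.53 ± 0.19, limma adjusted p = 0.00124), a difference of 0.93 after the GC correction. Slc7a11, the cystine transporter, fell from 74.7 to 6.83 RPKM (-3.27 ± 0.25, limma adjusted p = 0.000198). Of 15 ATF6 target genes, 8 rose and 1 fell, with a median of 0.58. Herpud1, of the degradation machinery of the endoplasmic reticulum, rose from 48.3 to 162 RPKM (1.72 ± 0.19, limma adjusted p = 0.000768). The known ATF3 target genes of macrophages had 5 tested members, of which 3 fell and 0 rose, among them Cxcl10 (35.2 to 5.00 RPKM, -2.59 ± 0.19, limma adjusted p = 0.000157) and Tnf (28.6 to 6.14 RPKM, -2.03 ± 0.22, limma adjusted p = 0.000672). Of 8 cAMP and CREB target genes 3 fell and 0 rose, Dusp1, Thbs1 and Pde4b. Among 10 bZIP partners 4 rose, including Cebpd (3.52 to 64.0 RPKM) and Jund, and 2 fell, Cebpg and Fosl2, against 2 and 2 after the GC correction. Jund was at 22.6 and 83.0 RPKM in the 2 libraries labelled Atf3KO. Among the other ATF and CREB genes 3 of 8 rose, Creb3l2, Crebl2 and Atf6b, and Atf6b did not pass after the GC correction (0.37, limma adjusted p = 0.194). Of 10 coactivator and protein kinase A genes 2 rose and 3 fell, Prkar2b, a regulatory subunit, from 24.2 to 1.90 RPKM. After the GC correction the counts were again 2 and 3, but Prkaca, which had risen, did not pass (0.31, limma adjusted p = 0.1835). Of 11 stress kinases 1 rose and 2 fell, against 3 and 2 after the GC correction. Rps6ka4, the 1 that rose, was not among the 3 (0.16, limma adjusted p = 0.408).

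In the libraries labelled JunDKO, where Atf6 RNA was higher (a call kept in 11 of 21 alternatives), ATF6 target genes were lower. Of 15, 12 fell and 0 rose against Scramble, where 6.93% of all models were higher and 4.82% lower, with a median of -1.28 beside 0.23 over all models, and 14 fell against JunKO, where 8.14% of all models passed. The chaperone Hyou1 fell from 182 to 44.8 RPKM (limma adjusted p = 0.000194) and Creld2 from 97.9 to 19.2 RPKM (-2.31 ± 0.22, limma adjusted p = 0.000513). Both passed in all 21 alternatives. Of 18 ATF4 target genes 6 rose and 2 fell, Shmt2 among the first (26.9 to 98.8 RPKM) and Slc7a11 among the second (74.7 to 0.753 RPKM). Of 8 cAMP and CREB target genes 2 rose, Thbs1 and Nr4a1, and 0 fell, and Nr4a1 passed in 10 of 21 alternatives (highest limma adjusted p = 0.192). Of 5 ATF3 target genes 3 fell, Nos2, Tnf and Cxcl10, of 10 bZIP partners 3 rose, Cebpa, Cebpg and Fos, the last in 10 of 21 alternatives, of 8 other ATF and CREB genes Creb5 fell, of 10 coactivator and protein kinase A genes Prkacb rose and Prkar2b fell, and of 11 stress kinases Mapk9 fell. Of these calls, 14 of 21 alternatives kept those of Cxcl10 and Mapk9, 15 that of Cebpg, 16 that of Tnf, 17 those of Creb5 and Prkacb and 19 that of Cebpa. In the libraries labelled JunKO 0 genes of any of the 8 lists passed with limma-trend. Between 0 and 6 of a list had an unadjusted p under 0.05, as did 842 of all 10691 models. The 6 were among the 15 ATF6 target genes, whose median was 0.41 beside 0.0050 over all models. After the GC correction 1 ATF6 target gene passed as higher and 1 ATF4 target gene as lower.

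Under KLA, where 1.53% of all models passed, most tested genes of the ATF3 and the cAMP and CREB target lists passed, against 1 and 0 of the ATF4 and ATF6 target lists. Of 8 tested ATF3 target genes 6 rose and 0 fell, with a median of 4.95 beside -0.15 over all models, with the lowest adjusted p for the cytokine gene Tnf (19.4 to 3654 RPKM, 7.42 ± 0.29, limma adjusted p = 0.000144). Of 7 cAMP and CREB target genes 4 rose, Egr1 (4.71 to 307 RPKM), Dusp1, Nr4a1 and Pde4b, with a median of 3.71. Of 14 bZIP partners Junb (59.5 to 722 RPKM) and Fos rose, of 15 ATF4 target genes Ppp1r15a rose, and of the 15 ATF6 target genes, the 8 other ATF and CREB genes, the 11 coactivator and protein kinase A genes and the 9 stress kinases 0 passed. The call of Fos was kept in 8 of 15 alternatives (highest limma adjusted p = 0.166), that of Ppp1r15a in 11 (0.173) and that of Junb in 12 (0.194). Between the strains, where 2.31% of all models passed, 0 genes of any list passed. Many genes of the ATF3 and CREB lists are known as rapid response genes of activated macrophages.

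In vehicle-treated TGEMs against Scramble iBMDMs, where 16.2% of all models were higher and 33.7% lower, Atf4 was higher and most ATF4 target genes were lower, 12 of 18 against 1 higher, with a median of -1.78 beside -0.32 over all models. Asns, asparagine synthetase, fell from 33.2 to 2.85 RPKM (-3.15 ± 0.22, limma adjusted p = 1.51e-05). Of 15 ATF6 target genes 14 were lower and 0 higher, with a median of -2.30, and Hspa5, the chaperone BiP, fell from 1782 to 190 RPKM. Atf6 itself measured 18.4 and 22.8 RPKM against 18.5 and 17.5, and it passed as higher at equal library medians (0.50 ± 0.18, limma adjusted p = 0.0496) and after the GC correction (0.47 ± 0.16, limma adjusted p = 0.0350). Of 13 bZIP partners 7 were higher and 0 lower, among them Cebpa (5.75 to 105 RPKM), Batf, Jund and Jun. Of 8 cAMP and CREB target genes 5 were higher and 2 lower, of 7 ATF3 target genes 2 higher and 2 lower, of 10 stress kinases 6 lower, of 11 coactivator and protein kinase A genes 3 higher and 4 lower, and of 8 other ATF and CREB genes 3 higher and 1 lower.

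**Figure D5:**
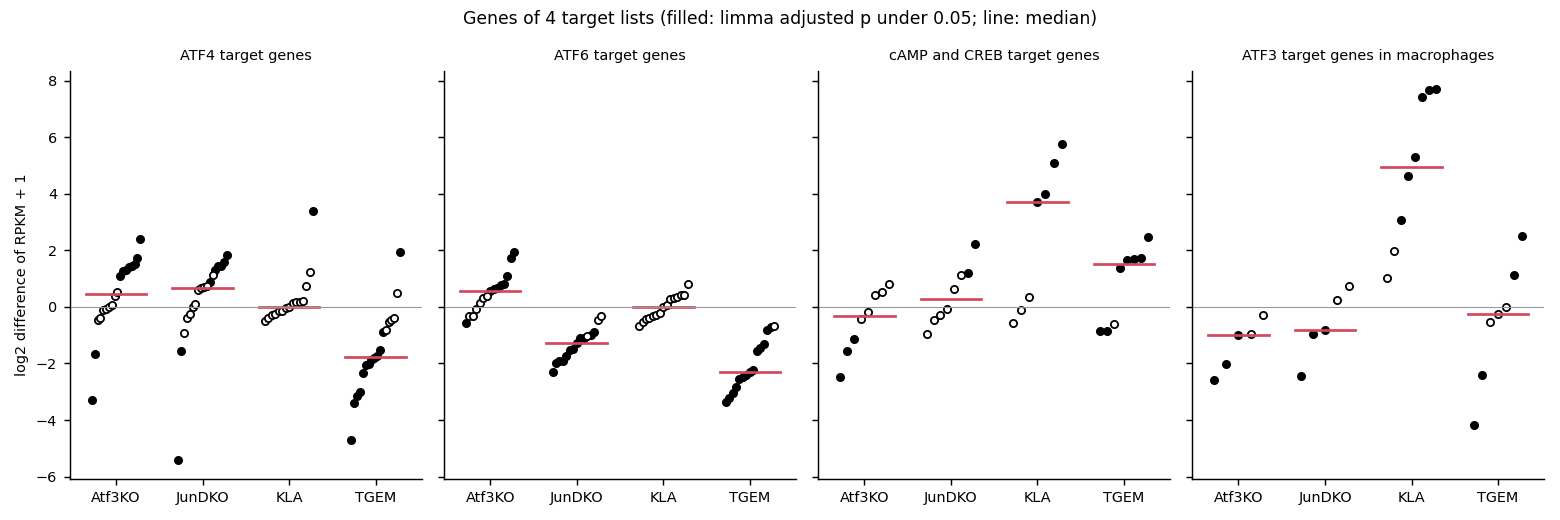
Log2 difference of RPKM + 1 (vertical axis) of each tested gene of 4 target lists in 4 comparisons (horizontal axis: libraries labelled Atf3KO and JunDKO minus Scramble, KLA minus vehicle, vehicle-treated TGEMs minus Scramble), filled where the limma adjusted p was under 0.05, with a line at the list median. Of 15 ATF6 target genes 12 fall in JunDKO and 14 in TGEMs.

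The models whose pattern over the 13 libraries was most like that of each factor were found after the mean of each cell kind was subtracted, among 7723 models of at least 5 RPKM on average. For Atf3 these were Tnip2, an inhibitor of NF-kB signalling, with Pearson's r of 0.98, Cebpd with 0.95 and 3110082I17Rik with 0.94. For Jdp2 they were Vasp and Vps37c with 0.92 each and Lrrc8b with 0.88, and for Atf4 Slc7a8, AB124611 and Dpm2 with 0.89 to 0.90. For Creb1 they were Ptbp3, Nek7 and Vwa5a with 0.97 to 0.98, for Atf6 Wwp1, Hpgds and Dab2 with 0.96 to 0.98, and for Atf1 H2afz, Gpd2 and Slc35a1 with 0.95 to 0.96. For Atf5 they included Kcnab2 and Sdc3 with 0.93 to 0.94, for Atf7 Snap23, Setd5 and Zcchc6 with 0.91 to 0.95, and for Atf2 Cnot7, Trnt1 and Nup153 with 0.92 to 0.93. Crem was below the level set for this search. The 13 points share libraries, their depth and their trend with GC content, so these values describe the likeness and nothing more.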

How the data were processed

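The values are the RPKM deposited by the authors for 13 of 17 samples, a table of 24453 gene models in columns headed FPKM. Per the file headers they were made with HOMER over exons, 1 model kept per gene, and, from the submitters' processing notes and the study's methods, after alignment with STAR at default settings to mm10 or to a Balb/cJ genome made from it. Versions and any strand option are not given in the sources used here. The authors tested with edgeR. Here the deposited unit is RPKM, so limma-trend on a log scale was used, with limma-voom on reads recovered from it as an alternative.

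RPKM moves in steps of 1 read, which gave library totals of 1553296 to 18444561 reads and the reads behind each value (at least 99.92% of values up to 50 reads lay within 0.05 of a whole number). Models whose mean reached 1 RPKM in the libraries fitted were tested with limma-trend (limma 3.58.1, R 4.3.3) on log2(RPKM + 1), two-sided, with Benjamini-Hochberg adjustment over all models of a comparison. A gene passed at an adjusted p under 0.05. The 8 iBMDM libraries formed 1 fit (4 residual degrees of freedom), the 5 TGEM libraries a fit with strain and treatment (2), with their product for the interaction (1), and all 13 a fit of 8 groups for the comparison of cell kinds (5). The GC correction removed from each library a spline of GC content with 5 degrees of freedom, for the 24162 models (98.8%) with a RefSeq transcript. Replicate numbers of Balb/cJ KLA were given in accession order.

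All 10 genes are named. Genes named from a list are among the up to 4 with the lowest adjusted p of those passing (not all 4 are named, and the rest are counted), and for the similar patterns the 3 models with the highest r, except 1 that is not reported here. Members, lists and most alternatives were chosen with earlier results of these data known, and the replicate block without the Atf3KO libraries and the crossed block after seeing the data. The fits were tested on simulated data. Promoters are RefSeq sequences of GRCm38.p6. Software was Python, numpy, pandas, scipy and matplotlib.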

Additional observations from a re-analysis of the deposited data

How the results depend on the processing

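The 24 differences of single genes that passed gave 464 values under alternatives: 396 kept their direction and passed, 67 kept their direction and did not pass, and 1 turned, that of Atf5 between the libraries labelled Atf3KO and JunKO (-0.086 after the GC correction, which removes the trend of the libraries with GC content). Some alternatives could not change a direction. Leaving out a library of a group not compared, or adding a replicate block, changes only the SE and the p-value. Counts of the 10 genes that passed stayed within 1.5 times in 160 of 187 alternatives. A count of 0 beside 0 was taken as within, so comparisons in which no gene passed add to this number. The genes behind a count could also differ. For Atf3KO against Scramble, Atf5, Crem and Atf1 left and Atf7 and Atf6 joined after the GC correction. Against Scramble, 6 genes passed for Atf3KO, 3 of them also at 2-fold and 16 RPKM, and 4 to 6 with 1 library left out. For JunDKO against Scramble 2 passed, against 1 with no filter on low values, 0 at equal library medians, 0 by quantile normalization, 0 with libraries thinned to the shallowest, 5 after the GC correction, 0 at 2-fold and 16 RPKM and 0 to 2 with 1 library left out. For Atf3KO against JunKO 5 passed, 3 in a single fit of all 13 libraries, 2 at 2-fold and 16 RPKM and 3 to 5 with 1 library left out. For Atf3KO against JunDKO 7 passed, 3 at 2-fold and 16 RPKM and 4 to 8 with 1 library left out. For JunDKO against JunKO 0 passed, 3 after the GC correction, 1 without the Atf3KO libraries and 0 to 1 with 1 library left out. For TGEMs against Scramble 4 passed, 2 at 2-fold and 16 RPKM and 3 to 4 with 1 library left out. At 2-fold and 16 RPKM, 1339 of all 10691 models passed for Atf3KO and 531 for JunDKO against Scramble. There were 1038 for Atf3KO against JunKO, 1307 for Atf3KO against JunDKO and 2170 of 10929 for TGEMs against Scramble. With a replicate block 1 gene passed for JunDKO against Scramble, 4 with the block and no Atf3KO libraries, and for JunDKO against JunKO 3 with the block and no Atf3KO libraries and 1 with the Atf3KO numbers crossed. Replicate deviations correlated at 0.18 to 0.22 among Scramble, JunKO and JunDKO and at -0.21 to -0.12 with Atf3KO, so the numbers went together in the 3 groups of 1 label date and not with Atf3KO. With 2 numbers a group this is a hint from the data, not the design. The cause of these changes was not tested. Depth limits the low genes most: Crem rested on 6 to 37 reads in all but 1 library and Jdp2 on 19 to 25 reads in 6 of the 13.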
